A study of Mus musculus with 7 samples.

Results

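The 37 genes described here encode enzymes and transporters that use or replace the 2 nutrients missing from a methionine- and choline-deficient diet. They were chosen by name, from the methionine cycle, transsulfuration, folate metabolism, serine synthesis, methyl transfer, choline and phospholipid synthesis and polyamine synthesis. The choice was made with earlier results of these data known, which limits how their shares below compare with all tested genes. All 37 were found among the 53465 gene IDs of the counts table, and 36 passed the filter on low counts; Cbs did not. RNA was sequenced from CD4+CD25+ cells, a surface phenotype that enriches for regulatory T cells (Treg), sorted from mouse liver. KO_MCD stands for CD73 KO mice (CD73 is the AMP-hydrolysing ectoenzyme encoded by Nt5e) kept for 4 weeks on the deficient diet (3 libraries). Wild type mice given the same diet for 4 weeks form WT_MCD (2 libraries), and those given normal control diet over that time form WT_NCD (2 libraries). The labels name C57BL/6 as the wild type and give no age, pooling or deleted exon, and no knockout group on control diet was analysed here.

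Methionine is turned into S-adenosylmethionine, the methyl donor of nearly all cellular methylation, and the homocysteine left behind is either remethylated or passed on to cysteine. Choline is taken up, phosphorylated and built into phosphatidylcholine through the CDP-choline (Kennedy) pathway, and hepatocytes can also make phosphatidylcholine by methylating phosphatidylethanolamine. Activated T cells are known to depend on methionine uptake, on serine-fed folate metabolism and on polyamines, while the liver keeps its own isoforms of several of these enzymes.

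The libraries held 19731501 to 24398738 counts each. Levels are given as CPM, counts scaled to a common library size, and a count of 0 allows a level of up to 0.129 to 0.157 CPM (3 counts, counting error only). Nothing in the labels ties each library to its own animal, and p-values here therefore reflect variation among libraries that could be technical. Nt5e had 5.87, 14.5 and 6.43 CPM in KO_MCD, 177 and 87.5 CPM in WT_MCD, against 243 and 241 CPM in WT_NCD. The 8 T cell markers were counted in all 7 libraries and summed to 4257 to 4948 CPM in KO_MCD, 3677 to 7667 CPM in WT_MCD and 6142 to 9548 CPM in WT_NCD. RNA of other cells was present too: 13 macrophage and Kupffer cell markers summed to 13370, 9973 and 8257 CPM in KO_MCD, 2675 and 34910 CPM in WT_MCD, against 11110 and 1242 CPM in WT_NCD. In such bulk libraries, fewer cells of a type and less RNA per cell cannot be told apart. The spread between libraries of a group was wide, with a common biological coefficient of variation of 93.4%. This is the common dispersion estimate of edgeR, made apart from the fit used for the tests.

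Most of the 37 genes were well measured. Of these, 29 were counted in all 7 libraries, and 28 averaged at least 5 CPM. Scaled to exon length, the highest mean levels over the 7 libraries were 108 CPM per kb of Phgdh and 104 CPM per kb of Mat2b. Odc1 followed with 39.7, Slc44a2 with 31.8 and Amd1 with 30.9 CPM per kb. The 8 genes with a library at 0 were Mat1a, Bhmt, Cbs, Cth, Gnmt, Gamt, Nnmt and Pemt. None of these 8 averaged above 1.33 CPM per kb, and all are enzymes abundant in liver tissue. The steadiest gene was Amd1, whose highest library stood 1.38 times above its lowest, followed by Mthfd2 (1.72) and Mat2a (1.78). The widest ratios among genes counted everywhere were 219 for Slc44a1, 61.4 for Chka, 26.8 for Odc1 and 12.5 for Chpt1.

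**Figure D1:**
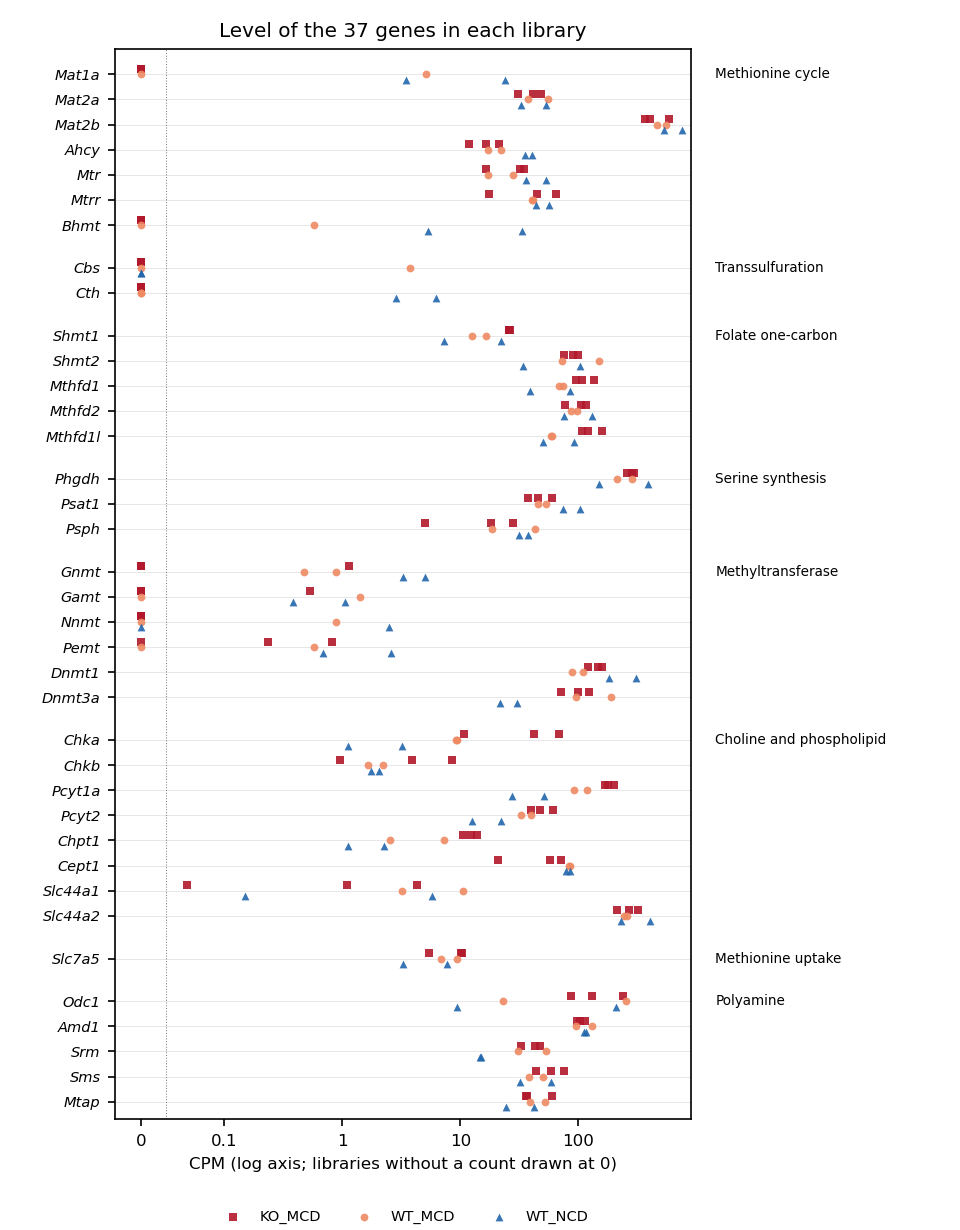
CPM of each of the 37 genes (rows, grouped by role) in each library on a log axis, with libraries that had no count drawn at 0; squares are KO_MCD (3), circles WT_MCD (2) and triangles WT_NCD (2). Dnmt3a, Pcyt1a, Pcyt2, Chka, Chpt1 and Srm have both triangles to the left of all other symbols. Ahcy, Mtr, Psat1, Dnmt1, Bhmt, Cth and Gnmt have them to the right.

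WT_MCD against WT_NCD asks how these genes differ on the deficient diet. Pcyt1a and Pcyt2, of phosphatidylcholine and phosphatidylethanolamine synthesis, the de novo DNA methyltransferase Dnmt3a and the spermidine synthase Srm stood higher in WT_MCD. The maintenance methyltransferase Dnmt1 and the liver enzymes Bhmt and Cth stood lower. Of the 36 tested genes, 4 were higher and 3 lower with an unadjusted edgeR p under 0.05, which is 19.4%, beside 6.00% of all 14784 tested genes (3.96% higher and 2.04% lower). Bhmt and Cth passed the filter on low counts through WT_NCD, where they were highest. This share and that of groups without overlap below therefore include genes whose direction the filter favoured. None passed the threshold of 0.05 after Benjamini-Hochberg adjustment over all tested genes (edgeR, smallest adjusted p of a member 0.548), and neither did any other gene (0%). DESeq2 called 2 members, Dnmt3a and Dnmt1, or 5.56% of the 36, beside 2.13% of all tested genes (1.71% higher and 0.419% lower); limma voom called 0 genes. A positive log2 fold change was found for 15 of the 36, beside 52.3% of all tested genes, and the median was -0.03, beside 0.04 over all tested genes. The groups did not overlap for 6 genes that were higher and 9 that were lower, or 41.7%, beside 31.6% of all tested genes (16.8% higher and 14.8% lower). Without WT_MCD replicate 1 the number with an unadjusted p under 0.05 was 4 in place of 7.

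The effect of the CD73 genotype under the deficient diet is addressed by KO_MCD against WT_MCD. Pcyt1a, Chka and the mitochondrial folate enzyme Mthfd1l stood higher in KO_MCD, while Mat1a was not counted there. These were the 3 higher genes and the 1 lower gene with an unadjusted edgeR p under 0.05, or 11.1% of the 36, beside 3.25% of all tested genes (1.20% higher and 2.04% lower). The value of Mat1a rests on WT_MCD replicate 2 alone (5.09 CPM), because WT_MCD replicate 1 was at 0 as well and the groups overlapped. None passed over all genes (edgeR, adjusted p of 1 for every member; 0% of all tested genes), and DESeq2 called 0 members, beside 0.338% of all tested genes (0.216% higher and 0.122% lower). Positive log2 fold changes numbered 18 of the 36, beside 47.9% of all tested genes, with a median of 0.03, beside -0.03 over all tested genes. The groups did not overlap for 7 higher genes and 1 lower gene, or 22.2%, beside 18.0% of all tested genes (8.37% higher and 9.66% lower). The number with an unadjusted p under 0.05 was 1 without KO_MCD replicate 1, 1 without KO_MCD replicate 2, 2 without WT_MCD replicate 1 and 0 without WT_MCD replicate 2.

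KO_MCD against WT_NCD differs in both genotype and diet, and it shares KO_MCD with the comparison above and WT_NCD with the diet comparison. Pcyt1a, Chka, Pcyt2, Chpt1, Dnmt3a, Srm and Mthfd1l stood higher in KO_MCD, and Ahcy, Psat1, Dnmt1, Bhmt, Cth and Mat1a stood lower. These 7 and 6 genes had an unadjusted edgeR p under 0.05, or 36.1% of the 36, beside 8.97% of all tested genes (4.72% higher and 4.25% lower). Bhmt, Cth and Mat1a had no count in KO_MCD and passed the filter on low counts through WT_NCD, where they were highest. The shares of lower genes in this comparison, by DESeq2 as well, therefore include genes whose direction the filter favoured. None passed over all genes (edgeR, smallest adjusted p of a member 0.203; 0% of all tested genes). DESeq2 called 8 members, Pcyt1a, Chka, Pcyt2, Chpt1, Dnmt3a and Srm higher and Mat1a and Bhmt lower, or 22.2%, beside 3.80% of all tested genes (2.58% higher and 1.22% lower). The groups did not overlap for 9 higher and 10 lower genes, or 52.8%, beside 26.1% of all tested genes (13.4% higher and 12.8% lower). In this comparison 16 of the 36 had a positive log2 fold change, beside 52.7% of all tested genes, and the median was -0.10, beside 0.06 over all tested genes.

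**Figure D2:**
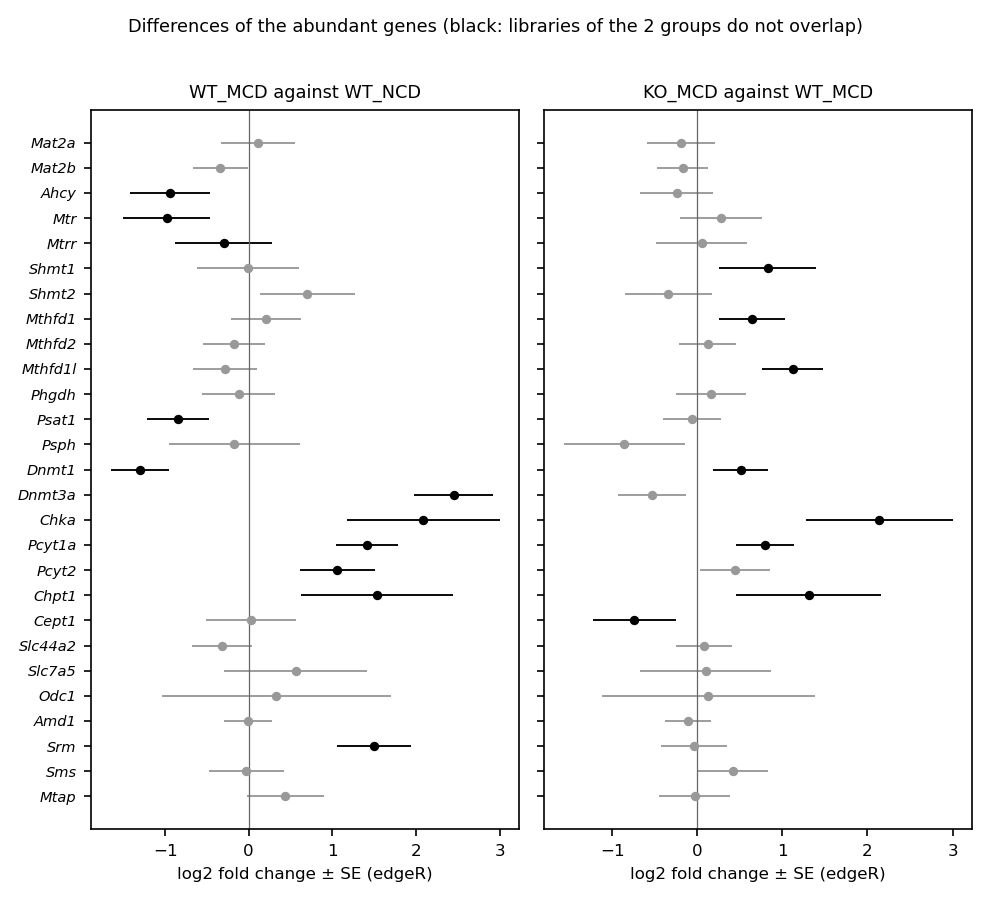
Fitted log2 fold change (x axis, edgeR, bars ± SE) of the 27 genes that were counted in every library and averaged 5 CPM or more, for WT_MCD against WT_NCD (left) and KO_MCD against WT_MCD (right). Points are black where the libraries of the groups do not overlap: Dnmt3a lies at 2.45 and Dnmt1 at -1.30 on the left, and Chka at 2.14 and Mthfd1l at 1.12 on the right.

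Choline enters cells through the transporters encoded by Slc44a1 and Slc44a2. Slc44a2 was the more abundant, at a mean of 31.8 against 0.517 CPM per kb over the 7 libraries, with 318, 269 and 211 CPM in KO_MCD, 245 and 258 CPM in WT_MCD, against 228 and 401 CPM in WT_NCD, and its groups overlapped. Slc44a1 had 0.0485, 1.09 and 4.33 CPM in KO_MCD, 3.20 and 10.6 CPM in WT_MCD, against 0.152 and 5.71 CPM in WT_NCD, so it varied within every group.

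Choline kinase takes the first step of the Kennedy pathway. Chka (ENSMUSG00000024843, chromosome 19, 3851773 to 3894369, GRCm38), its alpha isoform, had 68.8, 42.1 and 10.8 CPM in KO_MCD, 9.34 and 9.13 CPM in WT_MCD, against 3.23 and 1.12 CPM in WT_NCD. Every KO_MCD library lay above both WT_MCD libraries, KO_MCD replicate 3 only slightly so, and both of these lay above WT_NCD. The log2 fold change of Chka was 2.09 in WT_MCD against WT_NCD (SE 0.91, edgeR adjusted p = 0.808) and 2.14 in KO_MCD against WT_MCD (SE 0.86, edgeR adjusted p = 1). Between KO_MCD and WT_NCD it was 4.22 (SE 0.96, edgeR adjusted p = 0.320; DESeq2 adjusted p = 0.000112). The diet value of Chka was 3.04 without WT_NCD replicate 1 and 1.52 without WT_NCD replicate 2. The value against WT_NCD was 5.18 and 3.65 without the same libraries, and 3.60 without KO_MCD replicate 1, which also took the value against WT_MCD to 1.52. Chkb, the beta isoform, had 3.93, 8.46 and 0.952 CPM in KO_MCD, 1.67 and 2.20 CPM in WT_MCD, against 2.07 and 1.76 CPM in WT_NCD, with overlapping groups. Chkb overlaps another annotated gene on its own strand, Gm44502, so its counts are uncertain.

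Pcyt1a and Pcyt2 encode the enzymes that form CDP-choline and CDP-ethanolamine and set the rate of phosphatidylcholine and phosphatidylethanolamine synthesis. Pcyt1a (ENSMUSG00000005615, chromosome 16, 32430921 to 32475070) had 168, 179 and 199 CPM in KO_MCD, 92.1 and 117 CPM in WT_MCD, against 50.9 and 27.5 CPM in WT_NCD. The 3 groups were ordered without overlap, with means ± SD of 182 ± 15.5 CPM over the 3 KO_MCD libraries, 105 ± 17.7 CPM over the 2 WT_MCD libraries and 39.2 ± 16.5 CPM over the 2 WT_NCD libraries. The log2 fold change of Pcyt1a was 1.42 (SE 0.37, edgeR adjusted p = 0.704) in WT_MCD against WT_NCD and 0.80 (SE 0.34, edgeR adjusted p = 1) in KO_MCD against WT_MCD. Between KO_MCD and WT_NCD it came to 2.22 (SE 0.36; edgeR adjusted p = 0.203; DESeq2 adjusted p = 4.74e-06). Slc51a, which overlaps Pcyt1a on the other strand, had between 0 and 26 counts per library, against 641 to 4179 counts of Pcyt1a.

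Pcyt2 had 39.3, 60.5 and 47.3 CPM in KO_MCD, 39.4 and 32.9 CPM in WT_MCD, against 12.5 and 22.2 CPM in WT_NCD. Both groups on the deficient diet lay above WT_NCD and overlapped each other. Its log2 fold change came to 1.06 (SE 0.45, edgeR adjusted p = 0.808) in WT_MCD against WT_NCD. Chpt1, the cholinephosphotransferase that completes phosphatidylcholine, had 13.9, 12.2 and 10.6 CPM in KO_MCD, 2.55 and 7.29 CPM in WT_MCD, against 1.11 and 2.27 CPM in WT_NCD, again with no overlap between neighbouring groups. Against WT_NCD, KO_MCD had log2 fold changes of 1.49 for Pcyt2 (SE 0.42, edgeR adjusted p = 0.409) and 2.85 for Chpt1 (SE 0.91, edgeR adjusted p = 0.465). Cept1, which carries out the same last step with choline or ethanolamine, stood lower in KO_MCD, with 71.2, 20.7 and 57.4 CPM in KO_MCD, 84.1 and 82.4 CPM in WT_MCD, against 85.4 and 78.0 CPM in WT_NCD. KO_MCD lay below both wild type groups for Cept1, which overlapped each other. Dennd2d and Dram2 overlap Cept1 and were counted at 19.6 to 46.7 and 21.3 to 87.7 CPM, so some Cept1 reads could be theirs.

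**Figure D3:**
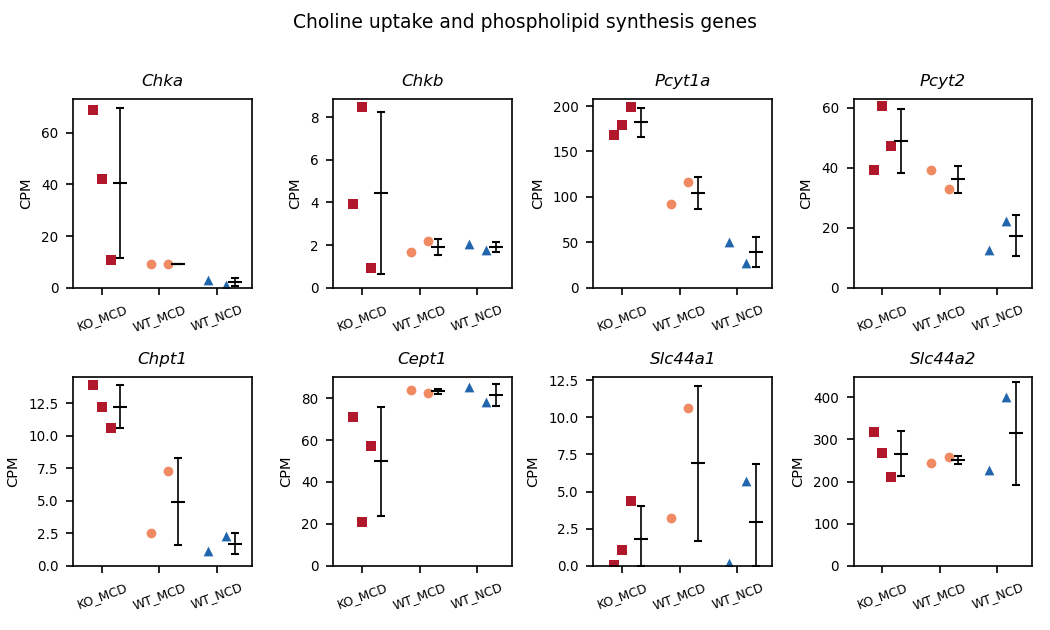
CPM of the 8 choline uptake and phospholipid synthesis genes in each library (points; KO_MCD, WT_MCD and WT_NCD from left to right), with the group mean and SD beside them (lower bars end at 0). The groups of Pcyt1a are ordered without overlap from 168 to 199 CPM in KO_MCD down to 27.5 to 50.9 CPM in WT_NCD, while those of Slc44a2 overlap.

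Of the 8 choline genes, 7 had a positive log2 fold change in WT_MCD against WT_NCD (median 1.15), 6 in KO_MCD against WT_MCD (median 0.62) and 5 in KO_MCD against WT_NCD (median 1.35). The shares of all tested genes above 0 were 52.3%, 47.9% and 52.7% in the same order. The positive diet values include 0.02 for Chkb, 0.03 for Cept1 and 1.23 (SE 2.09) for Slc44a1, all with overlapping groups. Markers of other cells also differed by group. Summed B and plasma cell markers had 832.3, 713.8 and 331.6 CPM in KO_MCD, 308.2 and 431.5 CPM in WT_MCD, against 283.8 and 120.1 CPM in WT_NCD. Within KO_MCD they had the same order as Chka, and KO_MCD replicate 3 was near WT_MCD in both. Summed NK cell markers had 102.3 to 128.3 CPM in KO_MCD, 116.1 to 253.5 CPM in WT_MCD and 36.86 to 48.62 CPM in WT_NCD. All 7 B and plasma cell markers were counted in 4 of the 7 libraries and 6 in the other 3. Of the 7 NK cell markers, 5 to 7 were counted per library on the deficient diet and 3 in each WT_NCD library. Their part in the choline gene values was not tested. Summed macrophage markers, given by library above, had 2675 CPM in WT_MCD replicate 1 and 34910 CPM in WT_MCD replicate 2, against 11110 and 1242 CPM in WT_NCD, and their part was not tested either.

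The promoters of Chka, Pcyt1a and Chpt1 are shown because these are the choline genes whose groups followed the same order. The 250 bases before the start site were read from RefSeq (GRCm38.p6) at chr19:3851523-3851772 on the plus strand, chr16:32430671-32430920 on the plus strand and chr10:88503971-88504220 on the minus strand. For Pcyt1a this is the first of 3 annotated starts. Capitals mark the GC box GGGCGG on either strand, which is bound by Sp1 family factors, and overlapping boxes run together.
Chka: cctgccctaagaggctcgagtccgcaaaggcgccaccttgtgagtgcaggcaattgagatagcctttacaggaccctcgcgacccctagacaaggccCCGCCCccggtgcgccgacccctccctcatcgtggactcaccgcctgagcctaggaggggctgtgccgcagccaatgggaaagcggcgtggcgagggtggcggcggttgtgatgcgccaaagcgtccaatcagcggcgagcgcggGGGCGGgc
Pcyt1a: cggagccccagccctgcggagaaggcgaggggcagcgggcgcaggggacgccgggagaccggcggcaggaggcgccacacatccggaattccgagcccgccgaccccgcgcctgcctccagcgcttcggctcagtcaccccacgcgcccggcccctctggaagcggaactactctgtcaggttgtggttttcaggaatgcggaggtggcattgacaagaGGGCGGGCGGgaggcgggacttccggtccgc
Chpt1: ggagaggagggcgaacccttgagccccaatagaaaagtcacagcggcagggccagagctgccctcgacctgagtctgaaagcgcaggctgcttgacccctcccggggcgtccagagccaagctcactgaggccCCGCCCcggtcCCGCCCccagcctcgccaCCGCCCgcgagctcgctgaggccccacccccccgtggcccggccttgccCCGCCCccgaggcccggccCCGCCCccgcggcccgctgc
The Chka window held 2 GC boxes, the Pcyt1a window 2 that overlap, and the Chpt1 window 5. A GC box was found in 32.7% of the 32851 promoter windows of this length, and in 30 of the 45 windows of member genes. Counted by gene, which is not the same measure, 24 of the 31 member genes with an entry had at least 1 such window. The E-box CACGTG was in none of the 3 windows and in 6.02% of all windows. The CCAAT box (CCAAT on either strand) occurred 2 times for Chka, 0 times for Pcyt1a and 1 time for Chpt1, and in 33.8% of all windows. Mat1a, Cth, Nnmt, Pcyt2, Slc7a5 and Srm had no entry.

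The methionine cycle begins with uptake and activation of methionine. Slc7a5 encodes LAT1, the main methionine transporter of activated T cells. It had 5.39, 10.2 and 10.3 CPM in KO_MCD, 9.29 and 6.87 CPM in WT_MCD, against 7.68 and 3.30 CPM in WT_NCD, so the groups overlapped. Its log2 fold change was 0.56 (SE 0.85) in WT_MCD against WT_NCD (edgeR adjusted p = 1) and 0.10 (SE 0.77) in KO_MCD against WT_MCD (edgeR adjusted p = 1). The diet value of Slc7a5 was 1.29 without WT_NCD replicate 1, 0.30 without WT_MCD replicate 1 and 0.08 without WT_NCD replicate 2. Its sign in KO_MCD against WT_MCD turned with 1 library left out, to -0.04 without KO_MCD replicate 2, -0.05 without KO_MCD replicate 3 and -0.10 without WT_MCD replicate 2.

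Mat2a encodes the methionine adenosyltransferase of cells outside the liver, which makes S-adenosylmethionine. It had 48.5, 41.6 and 30.8 CPM in KO_MCD, 37.2 and 54.9 CPM in WT_MCD, against 52.8 and 32.5 CPM in WT_NCD. Its groups overlapped in all 3 comparisons, with log2 fold changes of 0.11 (SE 0.44, edgeR adjusted p = 1) for the diet and -0.19 (SE 0.40, edgeR adjusted p = 1) for the genotype. Its sign turned with 1 library left out, to -0.20 without WT_MCD replicate 2 and -0.19 without WT_NCD replicate 2 for the diet, and to 0.12 without WT_MCD replicate 2 for the genotype. Mat2b, the regulatory subunit, was abundant in every library, from 369 CPM in KO_MCD replicate 1 to 754 CPM in WT_NCD replicate 2.

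Ahcy hydrolyses S-adenosylhomocysteine, the inhibitory product of methyl transfer. Ahcy had 11.9, 21.4 and 16.4 CPM in KO_MCD, 17.0 and 22.2 CPM in WT_MCD, against 35.0 and 40.2 CPM in WT_NCD. Both groups on the deficient diet lay below WT_NCD, and they overlapped each other. Ahcy had a log2 fold change of -0.94 (SE 0.48, edgeR adjusted p = 0.808) in WT_MCD against WT_NCD and -1.18 (SE 0.42, edgeR adjusted p = 0.507) in KO_MCD against WT_NCD. In KO_MCD against WT_MCD it was -0.24 (SE 0.43, edgeR adjusted p = 1). Mtr, the methionine synthase that remethylates homocysteine with folate, was ordered likewise, with 34.3, 31.8 and 16.4 CPM in KO_MCD, 28.0 and 17.3 CPM in WT_MCD, against 53.5 and 36.0 CPM in WT_NCD. Its reductase Mtrr ranged from 17.4 to 64.5 CPM, both found in KO_MCD.

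The liver-type enzymes of this cycle were at or near 0 on the deficient diet, apart from Mat1a in WT_MCD replicate 2. Bhmt (ENSMUSG00000074768, chromosome 13, 93616675 to 93637961), which remethylates homocysteine with choline-derived betaine, had 0 CPM in all 3 KO_MCD libraries, 0 and 0.577 CPM in WT_MCD, against 33.4 and 5.32 CPM in WT_NCD. Mat1a, the hepatocyte counterpart of Mat2a, had 0 CPM in all 3 KO_MCD libraries, 0 and 5.09 CPM in WT_MCD, against 23.8 and 3.48 CPM in WT_NCD. Cth, which makes cysteine from cystathionine, was counted in WT_NCD alone, at 6.22 and 2.87 CPM. With each KO_MCD group sum set to 3 counts, Bhmt was at least 387-fold, Mat1a at least 272-fold and Cth at least 93.6-fold lower in KO_MCD than in WT_NCD. Without WT_NCD replicate 1 these bounds were 113-fold for Bhmt, 73.8-fold for Mat1a and 61.0-fold for Cth, and without WT_NCD replicate 2 they were 709-fold, 504-fold and 132-fold. Cth was at least 59.7-fold lower in WT_MCD than in WT_NCD with its WT_MCD sum set to 3 counts, and at least 38.9-fold without WT_NCD replicate 1. For KO_MCD against WT_NCD the edgeR adjusted p was 0.362 for Bhmt, 0.463 for Mat1a and 0.434 for Cth, and DESeq2 called Bhmt (adjusted p = 5.05e-05) and Mat1a (adjusted p = 0.00201). In WT_MCD against WT_NCD the edgeR adjusted p was 0.808 for Bhmt (log2 fold change -6.05, SE 2.31) and 0.779 for Cth. Mat1a had an edgeR adjusted p of 1 in KO_MCD against WT_MCD, where its counts came from WT_MCD replicate 2 alone, and without that library both groups were at 0. Cbs, the other transsulfuration enzyme, was counted in that library only, at 3.72 CPM.

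Bhmt, Mat1a and Cth passed the filter through WT_NCD, with WT_MCD replicate 2 also counted for Bhmt and Mat1a, while Cbs did not pass. Hepatocyte markers were lowest in KO_MCD and varied within the wild type groups. Summed over 16 markers, hepatocyte RNA had 1.165, 7.694 and 8.662 CPM in KO_MCD, 8.778 and 66.36 CPM in WT_MCD, against 61.97 and 24.07 CPM in WT_NCD. In KO_MCD 3, 3 and 7 of the 16 markers were counted, in WT_MCD 7 and 15, and in WT_NCD 12 and 11, and Alb was at 0 in KO_MCD replicate 1. The markers differed in make-up as well: WT_MCD replicate 2 had 28.3 CPM of Alb and 17.3 CPM of Ahsg, against 3.79 and 3.08 CPM in WT_NCD replicate 1, while Mup3 was at 0 and Fabp1 at 0.367 CPM in WT_MCD replicate 2, against 15.5 and 13.6 CPM in WT_NCD replicate 1. Relative to the summed markers, Bhmt stood at 0.00869 in WT_MCD replicate 2, against 0.539 and 0.221 in the WT_NCD libraries. The same ratio of Mat1a was 0.0767 in WT_MCD replicate 2, against 0.384 and 0.145 in WT_NCD, and Cth was at 0 in that library. That of Gnmt was 0, 0 and 0.132 in KO_MCD and 0.1 and 0.00711 in WT_MCD, against 0.0807 and 0.135 in WT_NCD, so its groups overlapped. The part of hepatocyte RNA in these values was not tested.

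**Figure D4:**
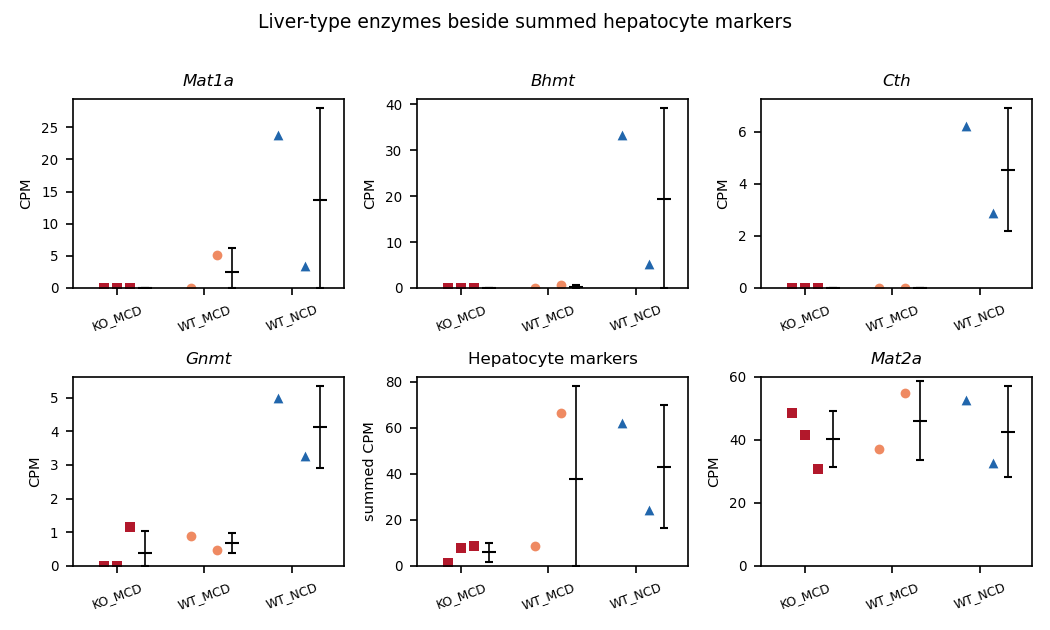
CPM of Mat1a, Bhmt, Cth and Gnmt, the summed CPM of 16 hepatocyte markers, and CPM of Mat2a in each library (points; KO_MCD, WT_MCD and WT_NCD from left to right), with group mean and SD (lower bars end at 0). Bhmt and Cth lie highest in WT_NCD, while hepatocyte markers reach 66.36 CPM in WT_MCD and 61.97 CPM in WT_NCD and Mat2a overlaps between groups.

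Of the other methyltransferases that act on small molecules, Gnmt, which consumes surplus S-adenosylmethionine in liver, had 0, 0 and 1.14 CPM in KO_MCD, 0.882 and 0.472 CPM in WT_MCD, against 5 and 3.26 CPM in WT_NCD. Gamt, Nnmt and Pemt, which make creatine, methylate nicotinamide and make phosphatidylcholine in liver, never exceeded 2.58 CPM in any library. Their groups overlapped in KO_MCD against WT_MCD and in KO_MCD against WT_NCD.

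The DNA methyltransferases stood on opposite sides of WT_NCD on the deficient diet. Dnmt3a (ENSMUSG00000020661, chromosome 12, 3806007 to 3914443), which sets new methylation marks, had 98.5, 123 and 71.1 CPM in KO_MCD, 94.7 and 187 CPM in WT_MCD, against 30 and 21.5 CPM in WT_NCD. All 5 libraries on the deficient diet lay above both WT_NCD libraries, and the KO_MCD and WT_MCD libraries overlapped. Means ± SD were 97.7 ± 26.2 CPM over the 3 KO_MCD libraries, 141 ± 64.9 CPM over the 2 WT_MCD libraries and 25.8 ± 6.0 CPM over the 2 WT_NCD libraries. The log2 fold change of Dnmt3a was 2.45 (SE 0.47, edgeR adjusted p = 0.548; DESeq2 adjusted p = 0.000393) in WT_MCD against WT_NCD and 1.92 (SE 0.43, edgeR adjusted p = 0.320; DESeq2 adjusted p = 0.00224) in KO_MCD against WT_NCD. Its antisense partner Dnmt3aos, which overlaps it, had 0 to 123 counts per library, against 502 to 3556 counts of Dnmt3a. Summed NK cell markers and summed B and plasma cell markers also lay above WT_NCD in every library on the deficient diet. Their part in the Dnmt3a values was not tested.

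Dnmt1, which copies methylation at each DNA replication, had 145, 159 and 121 CPM in KO_MCD, 110 and 88.9 CPM in WT_MCD, against 183 and 308 CPM in WT_NCD. KO_MCD lay above WT_MCD and below WT_NCD without overlap. For Dnmt1 the log2 fold change stood at -1.30 (SE 0.35, edgeR adjusted p = 0.705; DESeq2 adjusted p = 0.0463) in WT_MCD against WT_NCD and 0.51 (SE 0.32, edgeR adjusted p = 1) in KO_MCD against WT_MCD. Between KO_MCD and WT_NCD it was -0.79 (SE 0.31, edgeR adjusted p = 0.541). Within each library the ratio of Dnmt3a to Dnmt1, per kb, was 0.301, 0.343 and 0.260 in KO_MCD, 0.382 and 0.932 in WT_MCD, and 0.0727 and 0.0309 in WT_NCD. This ratio does not depend on the scaling between libraries, and its WT_NCD values lay below all others.

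**Figure D5:**
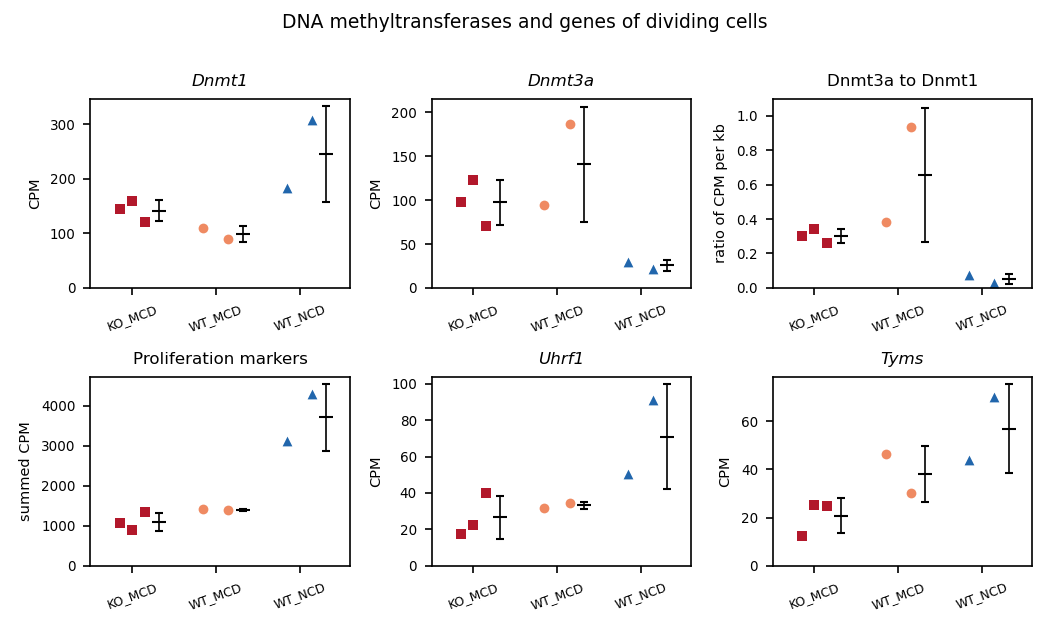
CPM of Dnmt1, Dnmt3a, Uhrf1 and Tyms, the ratio of Dnmt3a to Dnmt1 per kb, and the summed CPM of 18 proliferation markers in each library (points; KO_MCD, WT_MCD and WT_NCD from left to right), with group mean and SD. Dnmt3a is at 21.5 to 30 CPM in WT_NCD, where Dnmt1 and the proliferation markers are highest.

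Proliferation markers, like Dnmt1, stood highest in WT_NCD. Between the groups on the deficient diet, Dnmt1 stood higher in KO_MCD, and the summed markers stood lower in KO_MCD. All 18 were counted in every library, and they summed to 1060, 905.2 and 1339 CPM in KO_MCD, 1413 and 1386 CPM in WT_MCD, against 3125 and 4303 CPM in WT_NCD. Their part in the Dnmt1 values was not tested. Dnmt1 relative to the summed markers was 0.137, 0.176 and 0.0904 in KO_MCD, 0.0778 and 0.0641 in WT_MCD, and 0.0586 and 0.0716 in WT_NCD, so that WT_MCD and WT_NCD overlapped in this ratio. KO_MCD lay above both.

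Serine feeds the folate cycle. Phgdh, the first enzyme of serine synthesis, had 259, 285 and 294 CPM in KO_MCD, 286 and 213 CPM in WT_MCD, against 150 and 390 CPM in WT_NCD, with overlapping groups. Psat1, the next enzyme, had 37.2, 45.1 and 59.2 CPM in KO_MCD, 45.4 and 52.9 CPM in WT_MCD, against 74.7 and 103 CPM in WT_NCD. WT_NCD lay above both other groups for Psat1, whose log2 fold change in KO_MCD against WT_NCD was -0.91 (SE 0.33, edgeR adjusted p = 0.510). Psph, the last enzyme, ranged from 5.02 CPM in KO_MCD replicate 2 to 42.5 CPM in WT_MCD replicate 1, and it overlaps the far more abundant Cct6a.

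In the mitochondrial arm of folate metabolism, Shmt2 splits serine, Mthfd2 oxidises the one-carbon unit and Mthfd1l releases it as formate. Shmt2 had 74.8, 99.6 and 90.6 CPM in KO_MCD, 150 and 72.9 CPM in WT_MCD, against 34.2 and 104 CPM in WT_NCD. Mthfd2 had 115, 105 and 77.1 CPM in KO_MCD, 97.3 and 85.7 CPM in WT_MCD, against 76.0 and 131 CPM in WT_NCD. Neither separated the groups: the log2 fold changes were 0.70 (SE 0.57) and -0.18 (SE 0.37) for the diet and -0.34 (SE 0.51) and 0.12 (SE 0.34) for the genotype (edgeR adjusted p from 0.896 to 1). For the diet Shmt2 was 0.07 without WT_MCD replicate 1, 0.11 without WT_NCD replicate 1, 1.13 without WT_MCD replicate 2 and 1.71 without WT_NCD replicate 2. Shmt2 turned to 0.31 without WT_MCD replicate 1 for the genotype, and Mthfd2 turned to 0.28 without WT_NCD replicate 2 for the diet.

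Mthfd1l (ENSMUSG00000040675, chromosome 10, 3973118 to 4167081) had 107, 121 and 158 CPM in KO_MCD, 58.5 and 59.6 CPM in WT_MCD, against 50.6 and 92.4 CPM in WT_NCD. All KO_MCD libraries lay above all wild type libraries, which overlapped by diet. Its log2 fold change came to 1.12 (SE 0.36, edgeR adjusted p = 1) in KO_MCD against WT_MCD, the smallest unadjusted p of the 36 genes in that comparison (0.0157), and 0.85 (SE 0.36, edgeR adjusted p = 0.554) in KO_MCD against WT_NCD. The cytosolic enzymes of the same cycle were ordered likewise. Mthfd1 had 135, 94.9 and 107 CPM in KO_MCD, 74.6 and 69.1 CPM in WT_MCD, against 38.9 and 85.6 CPM in WT_NCD. Shmt1 had 25.7, 26.2 and 25.9 CPM in KO_MCD, 12.5 and 16.6 CPM in WT_MCD, against 7.23 and 22.2 CPM in WT_NCD. KO_MCD lay above both wild type groups for Mthfd1 and for Shmt1, with log2 fold changes against WT_MCD of 0.64 (SE 0.39) and 0.83 (SE 0.57), neither of which had an unadjusted p under 0.05. Shmt1 overlaps Smcr8, which was counted at 10.9 to 30.9 CPM, so its counts are uncertain. Of the 5 folate genes, 4 had a positive log2 fold change in KO_MCD against WT_MCD (median 0.64) and 2 in WT_MCD against WT_NCD (median -0.01). The shares of all tested genes above 0 were 47.9% and 52.3%.

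Polyamines draw on methionine through decarboxylated S-adenosylmethionine. Odc1, which makes putrescine, varied more within groups than between them, with 129, 236 and 87.1 CPM in KO_MCD, 252 and 23.1 CPM in WT_MCD, against 209 and 9.40 CPM in WT_NCD. Replicate 2 of each wild type group was the low one. Summed macrophage markers had 34910 CPM in WT_MCD replicate 2 and 1242 CPM in WT_NCD replicate 2, and their part in the Odc1 values was not tested. The log2 fold change of Odc1 was 0.33 (SE 1.37) for the diet and 0.13 (SE 1.25) for the genotype (edgeR adjusted p = 1 for both). It turned to -2.27 without WT_MCD replicate 1 and to -0.60 without WT_NCD replicate 2 for the diet, and to -0.35 without KO_MCD replicate 2 and -0.74 without WT_MCD replicate 2 for the genotype.

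Amd1, which decarboxylates S-adenosylmethionine, stayed between 94.6 and 131 CPM in all 7 libraries. Its close copy Amd2 had 8 to 20 counts per library, against 1803 to 2817 counts of Amd1. Srm, which joins the resulting aminopropyl group to putrescine to form spermidine, had 42.8, 32.8 and 47.0 CPM in KO_MCD, 31.0 and 53.2 CPM in WT_MCD, against 15.1 and 14.6 CPM in WT_NCD. All libraries on the deficient diet lay above WT_NCD, and KO_MCD and WT_MCD overlapped. The summed NK cell markers and the summed B and plasma cell markers were ordered likewise, and their part in the Srm values was not tested. Srm had a log2 fold change of 1.5 (SE 0.44, edgeR adjusted p = 0.712) in WT_MCD against WT_NCD and 1.46 (SE 0.41, edgeR adjusted p = 0.409; DESeq2 adjusted p = 0.0355) in KO_MCD against WT_NCD. In KO_MCD against WT_MCD it was -0.04 (SE 0.39, edgeR adjusted p = 1), and it turned to 0.09 without KO_MCD replicate 2 and 0.40 without WT_MCD replicate 2. Sms, which makes spermine, ranged from 32.1 to 76.1 CPM, and Mtap, which salvages methionine from the polyamine by-product, from 24.2 to 60.1 CPM, both with groups that overlapped in all 3 comparisons.

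A wider list of 88 genes of the same pathways, of which 76 were tested, was read in the same fit. In WT_MCD against WT_NCD, 5 were higher and 4 lower with an unadjusted edgeR p under 0.05, or 11.8%, beside the 6.00% of all tested genes; the number was 5 without either WT_MCD replicate 1 or WT_MCD replicate 2. Of the genes counted in this share, Bhmt2 was counted in WT_NCD alone and passed the filter on low counts through that group. Slc7a8 and Sgms2 passed the filter through libraries on the deficient diet, where they were highest. The share of 11.8% therefore includes genes whose direction the filter favoured. Slc7a8, Azin1, Sgms2 and Asns were among those with the smallest p. Slc7a8, the neutral amino acid transporter LAT2, had 29.8, 11.5 and 6.04 CPM in KO_MCD, 12 and 128 CPM in WT_MCD, against 0.708 and 0 CPM in WT_NCD. Sgms2, a sphingomyelin synthase, had 8.30, 21.8 and 7.90 CPM in KO_MCD, 0 and 58.3 CPM in WT_MCD, and 0 CPM in both WT_NCD libraries. For Slc7a8 and Sgms2 the highest library was WT_MCD replicate 2, which also had the most macrophage marker RNA (34910 summed CPM). The part of those cells was not tested.

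Asns, the asparagine synthetase induced by amino acid shortage through ATF4, had 11.6, 36.8 and 54.7 CPM in KO_MCD, 57.2 and 25.8 CPM in WT_MCD, against 7.23 and 9.27 CPM in WT_NCD. Its log2 fold change came to 2.33 (SE 0.77, edgeR adjusted p = 0.775) in WT_MCD against WT_NCD, and to 1.63 without WT_MCD replicate 1. Of the 9 tested genes of the ATF4 amino acid response, 6 had a positive and 3 a negative log2 fold change for the diet (median 0.14). The share of all tested genes above 0 was 52.3%. Asns alone of the 9 had an unadjusted edgeR p under 0.05. The negative values were -1.07 for Atf4, -0.89 for Ddit3 and -1.5 for Trib3, and the groups of Trib3 did not overlap. Azin1, the antizyme inhibitor that protects ornithine decarboxylase, had 170, 113 and 147 CPM in KO_MCD, 127 and 170 CPM in WT_MCD, against 294 and 343 CPM in WT_NCD. Its log2 fold change came to -1.10 (SE 0.32, edgeR adjusted p = 0.712) in WT_MCD against WT_NCD and -1.15 (SE 0.29, edgeR adjusted p = 0.352; DESeq2 adjusted p = 0.0183) in KO_MCD against WT_NCD. The antizyme genes Oaz1 and Oaz2 were chosen after their values were seen, and they went opposite ways. Oaz1 had 655, 621 and 802 CPM in KO_MCD, 784 and 953 CPM in WT_MCD, against 590 and 458 CPM in WT_NCD. Oaz2 had 200, 229 and 181 CPM in KO_MCD, 208 and 242 CPM in WT_MCD, against 280 and 281 CPM in WT_NCD.

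In KO_MCD against WT_MCD, 0 of the 76 had an unadjusted edgeR p under 0.05, beside 3.25% of all tested genes, while DESeq2 gave 3 with an unadjusted p under 0.05. Leaving out 1 library gave 0 to 4, with 4 without WT_MCD replicate 1 and 3 without KO_MCD replicate 3; it was 2 without KO_MCD replicate 1 or WT_MCD replicate 2 and 1 without KO_MCD replicate 2 or WT_NCD replicate 1. Lpcat1, Pla2g15, Atf4 and Tyms were among the genes with the smallest p. Atf4, the transcription factor of the amino acid response, had 447, 442 and 150 CPM in KO_MCD, 178 and 127 CPM in WT_MCD, against 469 and 170 CPM in WT_NCD, with KO_MCD replicate 3 between the WT_MCD libraries.

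In KO_MCD against WT_NCD, 3 of the 76 were higher and 6 lower with an unadjusted edgeR p under 0.05. This is 11.8%, beside the 8.97% of all tested genes, and the number was 5 without KO_MCD replicate 2. Bhmt2, Slc7a8 and Sgms2 are among these genes, and the filter on low counts favoured their direction here too. Tyms, the thymidylate synthase, had 12.4, 25.1 and 24.8 CPM in KO_MCD, 46.4 and 30 CPM in WT_MCD, against 43.8 and 69.9 CPM in WT_NCD (log2 fold change -1.45, SE 0.46, edgeR adjusted p = 0.463). Uhrf1, which guides Dnmt1 to replicating DNA, had 17.4, 22.6 and 39.7 CPM in KO_MCD, 31.9 and 34.5 CPM in WT_MCD, against 50.5 and 91.2 CPM in WT_NCD (log2 fold change -1.41, SE 0.46, edgeR adjusted p = 0.477). Proliferation markers were highest in WT_NCD as well, and their part in Tyms and Uhrf1 was not tested.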

How the data were processed

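A single table of raw counts for 53465 Ensembl gene IDs in 7 libraries was deposited by the authors. Per the submitters' processing notes, reads were aligned with HISAT2 2.1.0 and the build was GRCm38; for the counting tool, its annotation and strand setting, and the kit, nothing is stated (not given in the sources used here). Names, coordinates and exon lengths were added from GENCODE M21 (GRCm38), which held 53360 of the IDs. Exons of 13 members overlap another gene, and without a stated strand setting such reads cannot be told apart. Columns were matched to groups by title.

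A low-count filter (filterByExpr, minimum count 10) left 14784 genes, which were fitted over all 7 libraries with 1 coefficient per group and TMM scaling using the quasi-likelihood test of edgeR 4.0.16 (R 4.3.3); SE is the absolute log2 fold change over the square root of F, and p-values were adjusted by Benjamini-Hochberg over all of them with a threshold of 0.05. CPM were computed with TMM-scaled library sizes. DESeq2 1.42.0 and limma 3.58.1 (voom) were alternatives. Scripts were tested on simulated data. Libraries of a group differed by more than sampling noise (93.8 to 348 chi-square units for each degree of freedom). Same-numbered libraries of different groups had correlated deviations of -0.102 to 0.03, so replicate numbers were not taken as pairs.

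The members and lists were chosen with earlier results of these data known. By the naming rule, fold changes with errors were given for 10 members (Mat2a, Ahcy, Mthfd2, Shmt2, Slc7a5, Odc1, Srm, Dnmt1, Pcyt1a and Chka), for members with an unadjusted p under 0.05 in that comparison, and for up to 5 genes of the wider list with the smallest p and a mean of at least 5 CPM, some of which are not reported here. Mthfd1 and Shmt1 were given fold changes after their values were seen.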

Additional observations from a re-analysis of the deposited data

How the results depend on the processing

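With 2 or 3 libraries a group and wide spread between them, 0 genes passed adjustment in edgeR in any comparison. Without the low-count filter edgeR called 54 genes in WT_MCD against WT_NCD, 1 in KO_MCD against WT_MCD and 140 in KO_MCD against WT_NCD; DESeq2 called 315, 50 and 562 in the same order. The counts that follow are of genes with an unadjusted p under 0.05, and the cause of each shift was not tested. In KO_MCD against WT_MCD the number of members was 4 in edgeR, 2 in limma voom and 2 with a replicate block, and the number of wider genes was 0 in edgeR, 5 without the filter, 3 in DESeq2, 3 with a replicate block and 1 with the groups fitted alone. In KO_MCD against WT_NCD the number of members was 13 in edgeR and 10 with the replicate block, and that of wider genes 9 and 6; the block turned the log2 fold changes of Mat2a to 0.09 and of Mthfd2 to 0.12; in WT_MCD against WT_NCD it gave 6 wider genes. Replicate numbers were not taken to pair the libraries. With the wild type groups alone, an analysis added after seeing the data, a same-number replicate block gave 1 member and 4 wider genes, and a crossed replicate block gave 5 and 5.

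Leaving out 1 library at a time gave 4 to 8 members and 5 to 13 wider genes in WT_MCD against WT_NCD, 0 to 5 and 0 to 4 in KO_MCD against WT_MCD, and 9 to 14 and 5 to 11 in KO_MCD against WT_NCD. In WT_MCD against WT_NCD the log2 fold change ran from -0.20 to 0.50 for Mat2a, from -0.52 to 0.28 for Mthfd2 and from -2.27 to 3.87 for Odc1. In KO_MCD against WT_MCD it ran from -0.41 to 0.12 for Mat2a, -0.77 to 0.31 for Shmt2, -0.10 to 0.37 for Slc7a5, -0.74 to 2.74 for Odc1, -0.35 to 0.40 for Srm and -2.22 to 0.40 for Pla2g15. In KO_MCD against WT_NCD it ran from -0.38 to 0.31 for Mat2a, -0.23 to 1.37 for Shmt2, -0.40 to 0.39 for Mthfd2 and -0.47 to 4.00 for Odc1. Of the values that kept their sign, those of Chka ran from 1.52 to 3.04 in WT_MCD against WT_NCD and from 3.60 to 5.18 in KO_MCD against WT_NCD, and that of Shmt2 from 0.07 to 1.71 in WT_MCD against WT_NCD.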
